A study of Mus musculus with 44 samples.

Results

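The step from 12 h to 24 h after the start of B cell differentiation was compared in cultures of mouse iLS cells, with 3 libraries at 12 h and 3 at 24 h out of the 44 libraries of the time course. The 6 libraries were chosen by their labelled time alone. iLS cells are multipotent progenitors of blood, made from fetal liver of C57BL/6J mice and kept undifferentiated by Id3-ERT2, a fusion of the inhibitor Id3 with a receptor domain that is active in the presence of 4-hydroxytamoxifen (4-OHT). They had grown on the stromal feeder line TSt-4 with the cytokines IL-7 (20 ng/mL), SCF and Flt-3L (10 ng/mL each) and with 4-OHT (40 nM). Both groups were then kept on TSt-4 cells in 5 ng/mL IL-7 after removal of 4-OHT, for 12 h or 24 h, so the groups shared strain, fusion gene, feeder and medium and differed in time. Poly(A) RNA was sequenced, and the deposited values are FPKM, fragments scaled to transcript length and to the mapped fragments of the library. The labels do not say that replicates were separate cultures or that feeder cells were removed before RNA was isolated, so the p-values rest on the spread among libraries, and each value may mix progenitor and feeder RNA.

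Id proteins bind E proteins such as E2A (encoded by Tcf3) and keep them from DNA. When Id activity is withdrawn, E proteins are free to start the B-lineage program through Ebf1, Foxo1 and Pax5. Cell division is known to be coupled to such transitions, and the transcripts of mitotic kinases, kinetochore proteins and spindle proteins accumulate late in the cell cycle, after those of DNA replication factors. Secreting cells, among them matrix-producing stromal cells, depend on chaperones of the endoplasmic reticulum, whose genes are raised by the unfolded protein response through the transcription factors ATF6 and XBP1.

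The sequence context of the genes on which the results turn was taken from RefSeq (GRCm38.p6), as the bases that precede the annotated start. Hspa5 encodes the chaperone BiP and was the called gene with the smallest p-value. Its upstream sequence (chr2:34771866-34772089, plus strand) holds an endoplasmic reticulum stress element, CCAAT and CCACG separated by 9 bases, beginning 65 bases before the start, shown in capitals together with other copies of CCAAT or of its reverse complement ATTGG.
Hspa5: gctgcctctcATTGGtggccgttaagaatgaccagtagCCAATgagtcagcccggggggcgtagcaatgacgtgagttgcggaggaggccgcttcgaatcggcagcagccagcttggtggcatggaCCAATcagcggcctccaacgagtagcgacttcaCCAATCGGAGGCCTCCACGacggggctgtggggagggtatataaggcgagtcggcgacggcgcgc
Cenpf (chr1:189688087-189688228, minus strand), Cenpq (chr17:40934575-40934700, minus strand) and Mki67 (chr7:135716380-135716577, minus strand) encode mitotic proteins and were called higher at 24 h. Copies of CCAAT or ATTGG, the letters bound by the factor NF-Y, are in capitals, read 5′ to 3′ toward the start.
Cenpf: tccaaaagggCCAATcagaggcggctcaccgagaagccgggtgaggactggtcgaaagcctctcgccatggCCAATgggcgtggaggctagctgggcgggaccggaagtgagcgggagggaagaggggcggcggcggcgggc
Cenpq: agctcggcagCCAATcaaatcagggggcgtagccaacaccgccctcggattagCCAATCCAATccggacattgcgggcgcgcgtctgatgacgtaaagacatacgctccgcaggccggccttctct
Mki67: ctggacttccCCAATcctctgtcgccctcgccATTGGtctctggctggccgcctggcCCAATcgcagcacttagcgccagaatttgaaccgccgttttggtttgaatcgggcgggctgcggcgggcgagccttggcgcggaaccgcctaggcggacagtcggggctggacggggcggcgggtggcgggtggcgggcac
CCAAT, searched on both strands in the 250 bases before the start, was in 34.5% of 27025 mouse genes. It was in 19 of the 21 mitosis genes with such a window, in 17 of 26 DNA replication genes and in 16 of 17 endoplasmic reticulum chaperone genes. The 19-letter stress element, which contains 1 CCAAT, was in 0.122% of all windows and in 8 of the 17 chaperone windows (Hspa5, Hsp90b1, Pdia6, Calr, Canx, Dnajc3, Creld2 and Syvn1). Of the genes called higher, 13 of 15 with a window held CCAAT, and of those called lower, 6 of 23. A match describes letters and does not show binding.

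The library 24 h replicate 3 stood apart from the other 5. Its summed FPKM of 516025 was the lowest of the 44 libraries, its upper quartile of 10.4 FPKM was the lowest of 42 (next 11.98), and its correlation with the other 5 libraries over genes was 0.885 to 0.908, against 0.920 to 0.942 among those 5. The deviation of 12 h replicate 2 from each gene's mean rose with the GC content of the transcript (Spearman 0.44 across genes), and that of 24 h replicates 1 and 3 fell with it (-0.177 and -0.205). Results are therefore also given without 24 h replicate 3 and with the GC trend of each library removed. Stromal matrix genes summed to 8842 to 10601 FPKM at 12 h and 7810 to 9331 at 24 h. General blood-cell genes summed to 728 to 1044 FPKM at 12 h and to 933, 760 and 416 FPKM in 24 h replicates 1 to 3. The 4 multipotent progenitor markers summed to 112 to 161 and 108 to 187 FPKM, and the 5 B-lineage markers to 26.4 to 38.2 and 34.6 to 61.0 FPKM. All 4 and all 5 were detected at 1 FPKM in at least 1 of the 6 libraries, while Gata1, Klf1 and Alas2 of the erythroid genes, Elane, Ctsg, Cebpe, S100a8 and S100a9 of the myeloid genes, Cd3e and Themis of the T-lineage genes and Ncr1 of innate lymphoid cells were listed at 0 in all 6. In bulk libraries fewer cells of a type and less RNA per cell cannot be told apart.

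At 24 h, 5 of 26 mitosis genes were called higher, and Hspa5, which encodes the endoplasmic reticulum chaperone BiP, was called lower, within a small overall step. Of 13907 genes tested, 63 (0.453%) passed an adjusted p of 0.05 in limma with Benjamini-Hochberg adjustment, 29 higher (0.209%) and 34 lower (0.244%). At an unadjusted p under 0.05, 761 genes (5.47%) were higher and 1303 (9.37%) lower, and the median change of all genes tested was -0.05 on the log2(FPKM + 1) scale. The genes called higher had a median GC content of 45.6% and those called lower of 54.5%, against 50.6% over the genes tested. With the GC trend removed 27 genes (0.194%) were called higher and 9 (0.0647%) lower. Without 24 h replicate 3, 6 genes were called higher and 1 lower, and all 7 of these were among the 63 (Calm2, Cenpq, Ckap2, Egr1, Syt13 and the small nucleolar RNA gene Gm12238 higher, Hspa5 lower). Without 12 h replicate 2 the counts were 5 and 3, without 12 h replicate 1 they were 18 and 17, and without 12 h replicate 3 they were 32 and 15. Without 24 h replicate 2, in contrast, they were 143 and 359, and without 24 h replicate 1 they were 31 and 129. With a block for runs of consecutive library codes over the 42 libraries with replicates, 167 genes were higher and 231 lower. The split also moved with scaling, to 42 higher and 18 lower after quantile normalization, 53 and 35 with median-ratio scaling, 60 and 23 with equal sums outside small RNA genes, and 20 and 3 when libraries were scaled to the blood-cell genes, which moved the median of all genes by 0.31. Hspa5, Calm2 and Gm12238 were the 3 genes called whichever of the 6 libraries was left out. The other 60 lost the call in at least 1 of these fits, 55 of the 63 without 12 h replicate 2 and 56 without 24 h replicate 3. In a limma fit to the 6 libraries alone, without the spread of other times, 5 genes were called higher and 4 lower. Of the 63 genes, 2 were called in that fit. Calm2 lost the call in 5 of 24 alternatives, with an adjusted p of up to 0.575 in limma. Gm12238 was listed at 0 in all 3 libraries at 12 h, and values of such short genes are unreliable after poly(A) selection. Its steady call therefore carries little weight.

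**Figure D1:**
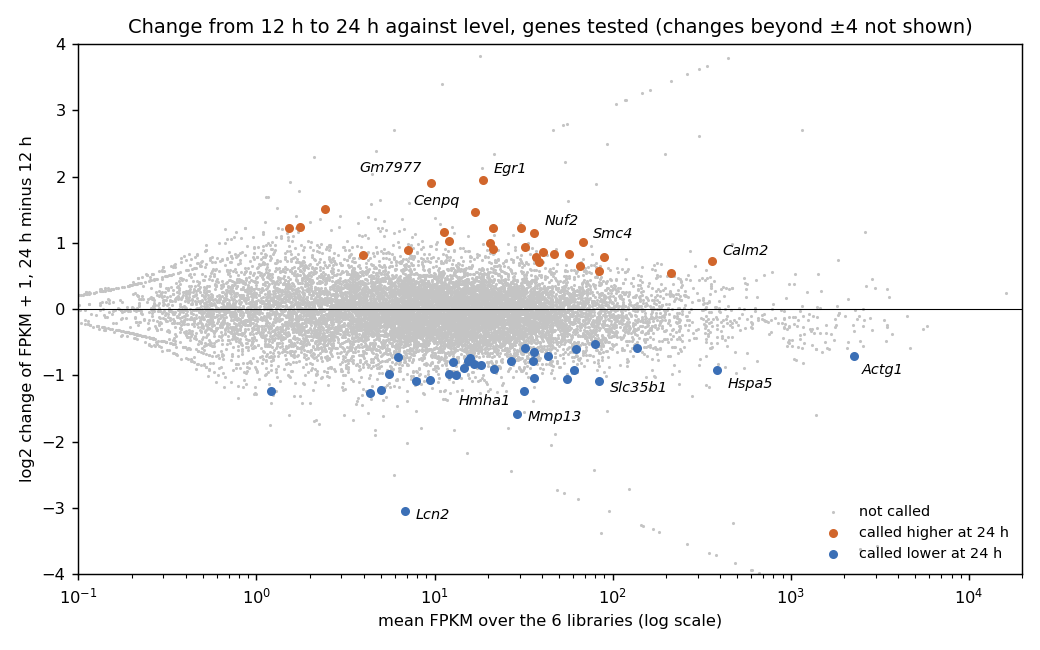
Change in log2(FPKM + 1) from 12 h to 24 h (vertical axis) against the mean FPKM of the 6 libraries (horizontal, log scale) for genes tested, with called genes in colour and some of them named. Called genes lie at all levels from about 1 FPKM up, with Hspa5, Calm2 and Actg1 the most abundant of those named; 24 genes with changes beyond 4, of which 3 were called, and 262 genes with means under 0.1 FPKM are not drawn.

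**Figure D2:**
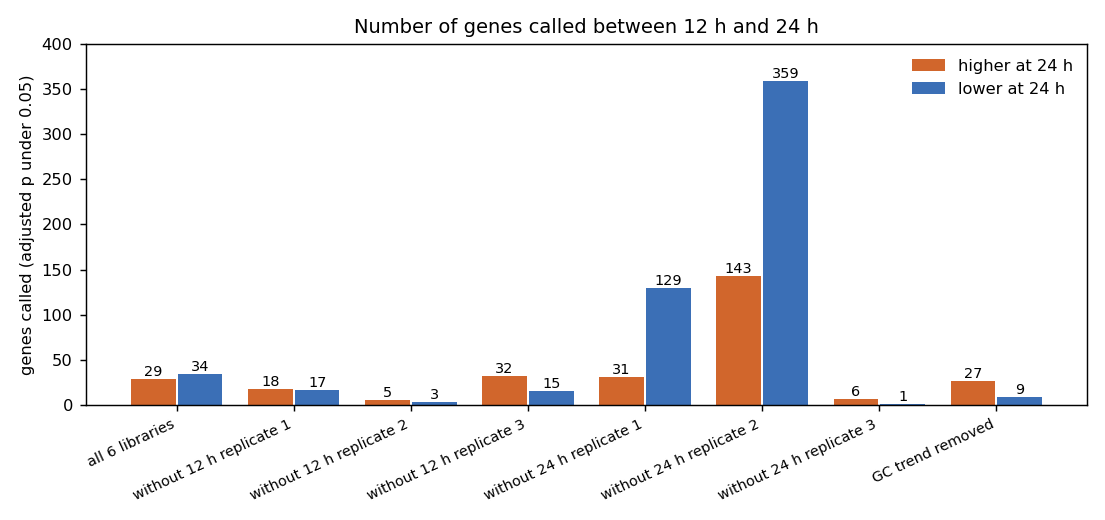
Number of genes called higher (orange) and lower (blue) at 24 h with all 6 libraries, with each library left out in turn, and with the GC trend removed. The counts were 29 and 34 with all libraries, 6 and 1 without 24 h replicate 3, and 143 and 359 without 24 h replicate 2.

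Among the 26 mitosis genes, 5 were called higher (Cenpf, Nusap1, Prc1, Ccna2 and Mki67) and 0 lower, 21 had an unadjusted p under 0.05 with a higher value and 0 with a lower one, and in 19 the 3 libraries at 24 h all lay above the 3 at 12 h. Over all genes tested 5.6% lay wholly above and 8.14% wholly below. The list's median change was 0.63, against -0.05 for all genes. It was 0.70 without 24 h replicate 3, where 0 members passed the adjusted threshold and 25 had an unadjusted p under 0.05 (all genes 4.95% higher and 3.26% lower), and 0.62 with the GC trend removed, where 4 were called and 20 were higher at an unadjusted p under 0.05 (all genes 6.12% higher and 6.38% lower). It was between 0.48 and 0.76 with any of the 6 libraries left out and between 0.69 and 1.02 under the 4 other scalings, with 6 members called after quantile normalization, 7 with median-ratio scaling, 9 with equal sums and 1 with scaling to the blood-cell genes. A fit to the 6 libraries alone called 0 of them in limma. The count of 5 fell to 0 without 12 h replicate 2, was 1 without 12 h replicate 1 and was 9 without 24 h replicate 2. The median difference between libraries of the same replicate number was 0.84, 0.77 and 0.15 for replicates 1, 2 and 3, the smallest being that of replicate 3.

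Cenpq, Nuf2, Cenpf and Sgol2 were called higher. The 12 largest rises and 12 largest falls were named only where the groups were apart. For genes so named the lack of overlap was fixed by the rule and is not separate support. Cenpq, a subunit of the inner kinetochore, measured 7.47, 6.20 and 12.5 FPKM at 12 h and 28.4, 25.4 and 21.2 FPKM at 24 h. All 3 libraries at 24 h exceeded the highest at 12 h, a log2 change of 1.46 ± 0.25 (SE, adjusted p = 0.00493), and without 24 h replicate 3 the change was 1.57 (adjusted p = 0.011). Nuf2, part of the Ndc80 complex that holds microtubule ends, measured 19.3, 15.7 and 32.8 FPKM and then 50.4, 40.3 and 58.5 FPKM. Its groups did not overlap, although 12 h replicate 3 was well above the other 12 h libraries, and the change was 1.15 ± 0.20 (adjusted p = 0.00521). Cenpf, a large kinetochore protein made late in the cycle, went from 7.53, 4.30 and 7.93 FPKM to 17.5, 10.9 and 19.3 FPKM, a change of 1.16 ± 0.22 (adjusted p = 0.00978). In both groups replicate 2 was the lowest of the 3 libraries. Sgol2, a shugoshin that protects centromeric cohesin, rose from 7.65 ± 2.17 to 16.4 ± 3.07 FPKM (SD, n = 3 each), a change of 1.02 (adjusted p = 0.0203 in limma). Leaving out 12 h replicate 2 gave the highest adjusted p of any single library for Cenpq (0.0765), Nuf2 (0.0808) and Cenpf (0.148).

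Ckap2, Ckap2l, Prc1, Nusap1, Mki67 and Ccna2 were also called higher. Ckap2, a microtubule-stabilising protein of the spindle, measured 10.9, 10.9 and 16.0 FPKM at 12 h and 33.3, 29.6 and 27.7 FPKM at 24 h. Its libraries at 24 h lay close together and well above all at 12 h (1.22 ± 0.22, adjusted p = 0.007, 1.28 without 24 h replicate 3, adjusted p = 0.0287, and 1.13 without 12 h replicate 2, adjusted p = 0.0765). Its relative Ckap2l measured 14.6, 15.7 and 22.9 FPKM and then 32.1, 36.3 and 62.5 FPKM, with 24 h replicate 3 far above the other 24 h libraries. Prc1, which bundles microtubules of the central spindle, measured 35.7, 37.9 and 48.1 FPKM and then 71.5, 72.7 and 73.5 FPKM, so that the 24 h libraries were nearly equal. Nusap1, a nucleolar and spindle-associated protein, rose from 22.1 ± 4.99 to 42.4 ± 2.98 FPKM (SD, n = 3 each; adjusted p = 0.0403 in limma). Mki67, the proliferation antigen that coats mitotic chromosomes, measured 24.8, 22.5 and 32.9 FPKM and then 44.6, 36.3 and 60.2 FPKM, a change of 0.78 ± 0.17 (adjusted p = 0.0353), and its adjusted p was 0.258 without 24 h replicate 3. Cyclin A2 (Ccna2) rose from 33.3 ± 3.60 to 60.2 ± 9.40 FPKM.

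Other genes called higher, outside the list and named here with their values known, were Smc4, a condensin subunit, Rad21, a cohesin subunit, Dlgap5, Aspm, Hmmr and Kif14. Smc4 measured 47.7, 31.3 and 56.5 FPKM and then 98.0, 76.9 and 96.2 FPKM, with every 24 h library above the highest at 12 h (1.02 ± 0.19, adjusted p = 0.0108, and 0.158 without 12 h replicate 2). Rad21, which acts through the whole cell cycle, rose by less, from 67.0 ± 8.94 to 101 ± 12.6 FPKM (0.58 ± 0.13). The members of the mitosis list that did not pass with the smallest values were Espl1 (-0.02), Aurkb (0.05) and Cdc20 (0.10), and the mitotic kinase gene Cdk1 had a change of 0.34 ± 0.20. The values of Plk1 (0.61), Aurka (0.56), Ccnb1 (0.60) and Top2a (0.57) lay near the list's median without passing the adjusted threshold.

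**Figure D3:**
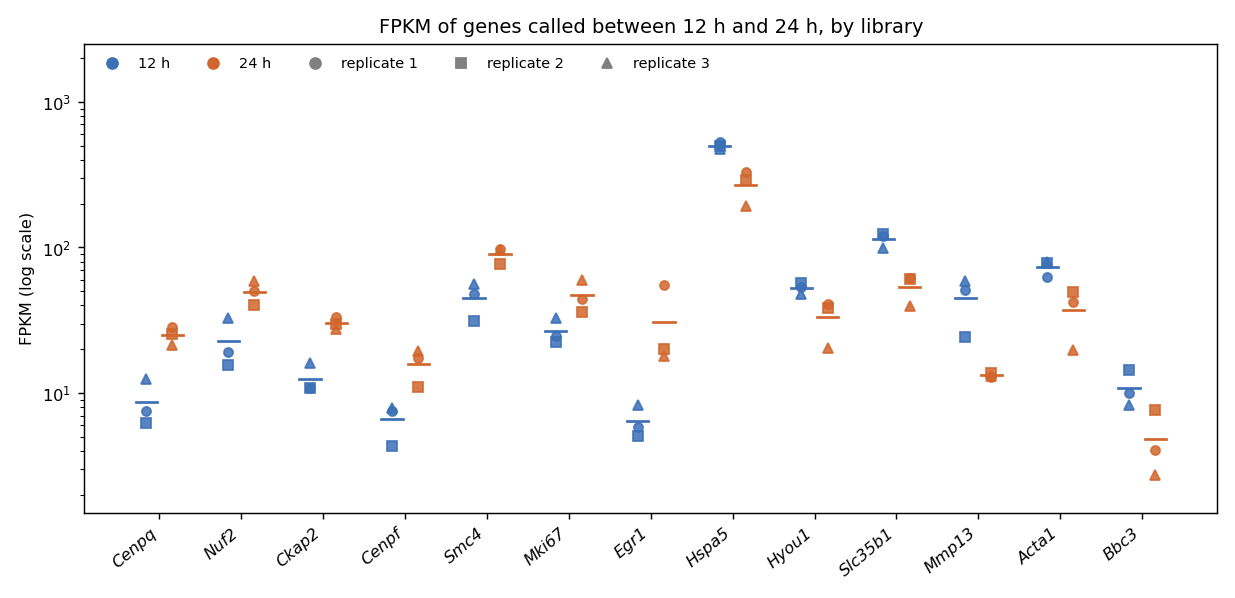
FPKM (log scale) of 13 called genes in the 3 libraries at 12 h (blue) and the 3 at 24 h (orange); the symbol gives the replicate and the bar the mean. All 3 libraries at 24 h lie above all 3 at 12 h for the mitotic genes and Egr1, and below them for Hspa5, Hyou1, Slc35b1, Mmp13, Acta1 and Bbc3. For those among the 12 largest rises and 12 largest falls, the naming rule required this.

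Genes of DNA replication had a median change of 0.05 with all 6 libraries, near that of all genes (-0.05). The list's median was 0.19 without 24 h replicate 3 (all genes 0.02) and 0.11 with the GC trend removed. Leaving out each library in turn gave -0.10 to 0.19. The median difference between libraries of the same number was 0.30, 0.17 and -0.24 for replicates 1, 2 and 3. Of 33 genes, 0 were called in limma. At an unadjusted p under 0.05, 2 were higher (Lig1, 0.39, and Pola1, 0.53) and 0 lower, against 5.47% and 9.37% of all genes. Pcna, the sliding clamp, had a change of 0.07, and Mcm2 to Mcm7 of the replicative helicase had changes from -0.03 to 0.11. Of 17 genes of early cell cycle control, 0 were called. The cyclin-dependent kinase inhibitor Cdkn1b had a change of 0.78 (adjusted p = 0.0916) and Ccnd2, a D-type cyclin, one of -0.07. No test compared the lists with each other. The mean of the mitosis list on the log2(FPKM + 1) scale was 4.85 ± 0.27 at 12 h and 5.44 ± 0.16 at 24 h (SD, n = 3 each). Before the step it had been lowest at 2 h (4.43 ± 0.11) and 4.86 ± 0.20 at 10 h, and after it, at 48 h, it was 5.15 ± 0.10.

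**Figure D4:**
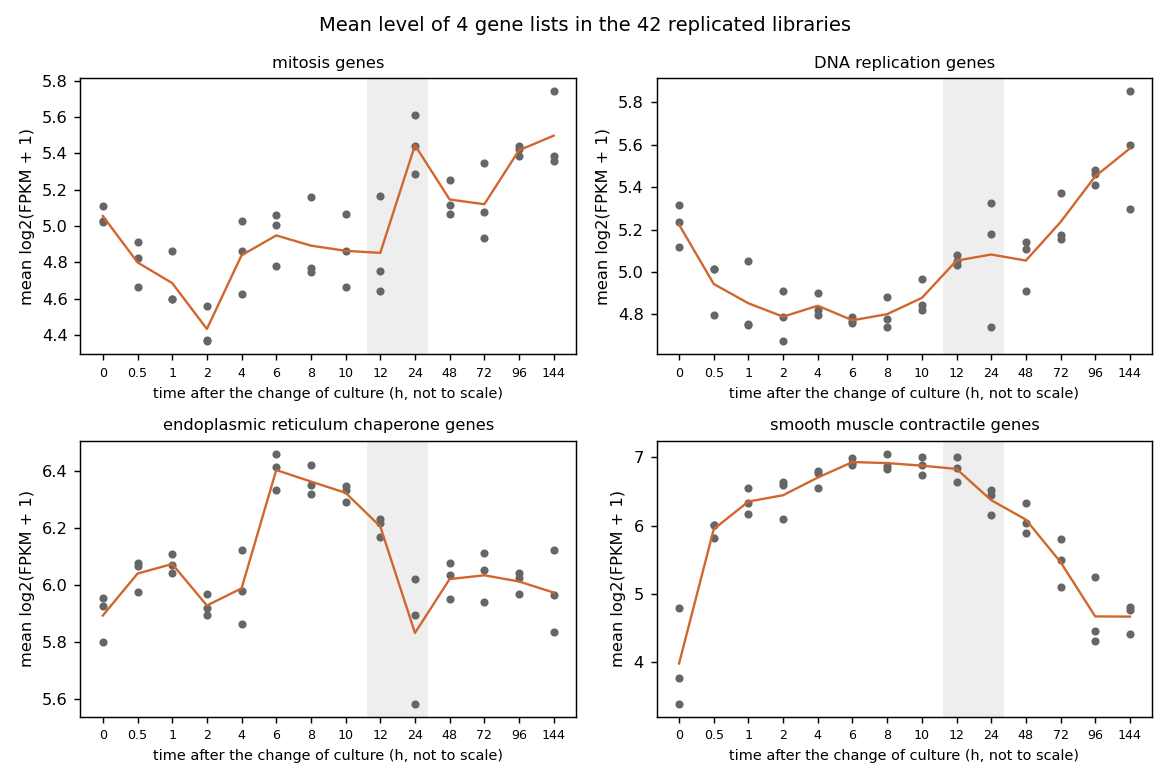
Mean log2(FPKM + 1) of the mitosis, DNA replication, endoplasmic reticulum chaperone and smooth muscle contractile lists in each library (points) and the mean of 3 libraries (line) at the 14 replicated times, which are spaced evenly and not to scale. From 12 h to 24 h (shaded) the mitosis mean went from 4.85 to 5.44 and the chaperone mean from 6.21 to 5.83, with 24 h replicate 3 the lowest chaperone point.

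Hspa5 and Hyou1, chaperones of the endoplasmic reticulum, and Slc35b1 were called lower at 24 h. Hspa5 measured 527, 496 and 479 FPKM at 12 h and 328, 291 and 191 FPKM at 24 h, a change of -0.92 ± 0.12 (adjusted p = 0.000246). The 12 h libraries were close to each other, and each 24 h library lay far below them, 24 h replicate 3 lowest. The change was -0.69 without that library (adjusted p = 0.00126) and -0.97 with the GC trend removed (adjusted p = 1.12e-06). The call was lost in 4 of 24 alternatives: in the 6 libraries alone without a replicate block (adjusted p = 0.600) and with one (adjusted p = 0.545), under scaling to the blood-cell genes (-0.54, adjusted p = 0.301) and with a minimum change of 2-fold. Hyou1, a chaperone that acts with BiP, measured 53.9, 57.0 and 47.6 FPKM and then 41.2, 38.6 and 20.5 FPKM (-0.70 ± 0.16, adjusted p = 0.0363). Its groups were apart, but the adjusted p was 0.291 without 24 h replicate 3 and 0.0701 with the GC trend removed. Slc35b1, which carries ATP into the endoplasmic reticulum, went from 120.3, 124 and 98.5 FPKM to 61.2, 60.8 and 39.4 FPKM (-1.09 ± 0.21, adjusted p = 0.0118). Every 24 h library was below all at 12 h, and the adjusted p of Slc35b1 was 0.124 without 24 h replicate 3.

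Of the 19 chaperone and unfolded protein response genes, 2 were called lower (Hspa5 and Hyou1) and 0 higher. At an unadjusted p under 0.05, 9 were lower and 0 higher, against 9.37% and 5.47% of all genes. In 7 the groups were apart in the lower direction, against 8.14% of all genes. The list's median change was -0.27. It was -0.21 without 24 h replicate 3 (6 lower and 0 higher at that p, all genes 3.26% and 4.95%). With the GC trend removed it was -0.29 (8 lower and 0 higher, all genes 6.38% and 6.12%). The count of 2 was 1 without 12 h replicate 1, 12 h replicate 2 or 24 h replicate 3, and was 4 and 5 without 24 h replicates 1 and 2. Under scaling to the blood-cell genes 0 chaperone genes were called lower, and the list's median change turned to 0.11, where the median of all genes was 0.27. The transcription factor Xbp1 measured 75.3, 72.1 and 66.5 FPKM and then 52.5, 47.0 and 18.2 FPKM (-0.98 ± 0.25, adjusted p = 0.0611), so that its groups were apart and 24 h replicate 3 was far the lowest. Creld2 had a change of -0.74 and Manf, a secreted stress protein, one of -0.41, neither passing. The lectin chaperone Canx (0.02), the disulfide isomerase Pdia3 (0.02) and the chaperone Hsp90b1 (-0.19) had small values, although the promoters of Canx and Hsp90b1 hold the same stress element as that of Hspa5. Mean Hspa5 was 500.4 ± 24.5 FPKM at 12 h and 270.1 ± 70.8 FPKM at 24 h (SD, n = 3 each). It had begun at 254 FPKM at 0 h, was 730 FPKM at 8 h and 591 ± 24.8 FPKM at 10 h, and was 356 ± 17.4 FPKM at 48 h.

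Other genes called lower, named with their values known, were Sec61a1, the channel of the translocon, Srprb, which anchors the receptor of the signal recognition particle, and Nsf, which recycles fusion complexes of vesicles. Sec61a1 went from 94.2 ± 6.00 to 65.4 ± 9.17 FPKM (-0.53 ± 0.11), Srprb from 44.1 ± 3.29 to 27.9 ± 2.80 FPKM (-0.65 ± 0.13) and Nsf from 39.1 ± 3.27 to 25.7 ± 2.91 FPKM (-0.59 ± 0.14). Srprb was also called with the GC trend removed (adjusted p = 0.0427), and Sec61a1 and Nsf were not. The list of ATF4 targets and amino acid response genes, which a separate branch of the stress response controls, had 0 of 22 members called in limma. At an unadjusted p under 0.05, 10 were lower and 0 higher, against 9.37% and 5.47% of all genes. The list's median was -0.41, and -0.26 without 24 h replicate 3, where 2 were lower at that p (all genes 3.26%). Its most changed members were Trib3 (-1.03, adjusted p = 0.166), a pseudokinase, and Ddit3 (-1.02, adjusted p = 0.15), a stress-induced transcription factor. Atf4 itself had a change of -0.25.

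Egr1, an immediate-early zinc finger transcription factor, rose most among the protein-coding genes called. It measured 5.86, 5.08 and 8.22 FPKM at 12 h and 55.1, 20.0 and 17.9 FPKM at 24 h. The lowest 24 h library lay above the highest at 12 h, and 24 h replicate 1 stood far above the rest (1.95 ± 0.35, adjusted p = 0.00792; 2.24 without 24 h replicate 3, adjusted p = 0.00967). Its adjusted p was 0.08 without 12 h replicate 2, the highest with any library left out. Egr1 stayed at 25.8 ± 7.68 FPKM at 48 h. Of the 25 immediate-early genes tested it was the only one called, and the list's median change was -0.08. Fos had a change of 0.94 (adjusted p = 0.544), from 0.45, 1.62 and 0.78 FPKM to 7.61, 2.17 and 0.73 FPKM, so that 24 h replicate 1 alone was high. Ier5 had a change of -0.74 (adjusted p = 0.0646), Jun -0.16 and Junb -0.08.

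Other called rises came in genes of varied function. Calm2, a calmodulin gene, measured 277, 242 and 296 FPKM and then 441, 416 and 495 FPKM, with all 24 h libraries far above those at 12 h (0.73 ± 0.12, adjusted p = 0.00399); it is named with its values known. Cyp39a1, an oxysterol hydroxylase, went from 0.30, 1.08 and 1.03 FPKM to 4.20, 3.11 and 4.86 FPKM (1.51 ± 0.29, adjusted p = 0.0108). Syt13, a synaptotagmin, went from 0.52 ± 0.54 to 2.51 ± 1.06 FPKM, and the genes Gm7977, a pseudogene in RefSeq, and BB287469 from 3.95 ± 3.34 to 15.2 ± 2.88 FPKM and from 0.67 ± 0.58 to 2.83 ± 1.04 FPKM. On the log2(FPKM + 1) scale the change of such low genes is understated. Gm12238, a small nucleolar RNA gene, was listed at 0 in the 3 libraries at 12 h and at 177, 151 and 154 FPKM at 24 h, and it was also listed at 0 at 10 h and 48 h. Values of such short genes are unreliable after poly(A) selection, and this holds for Gm12238. Snord34 and Mir196b, also called on values of 0 in 1 group, are not described further.

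Lcn2 and Mmp13 were called lower. Lcn2, a secreted siderophore-binding protein made in inflammation, measured 15.6, 10.6 and 11.4 FPKM at 12 h and was listed at 0, at 3.15 and at 0 FPKM at 24 h. All 24 h libraries were below all at 12 h (-3.05 ± 0.56, adjusted p = 0.0082; 0.0841 without 24 h replicate 3), and the mean was 4.97 ± 3.26 FPKM at 48 h. Of the 20 inflammatory and NF-kB genes Lcn2 was the only one called, and the median was -0.17. Il6 had a change of 1.17 (adjusted p = 0.33) and Icam1 one of -0.84 (adjusted p = 0.22). Mmp13, an interstitial collagenase, measured 51.4, 24.2 and 58.5 FPKM and then 12.9, 13.8 and 13.2 FPKM (-1.58 ± 0.34, adjusted p = 0.0264). The 24 h libraries were nearly equal, and the change without 24 h replicate 3 was as large, -1.58, with an adjusted p of 0.104; the adjusted p was 0.128 without 12 h replicate 3. Mmp13 was the only one of 20 matrix protease and inhibitor genes called. The list's median was -0.36, and the inhibitor Timp1 had a change of -0.94 (adjusted p = 0.306).

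Contractile genes of smooth muscle type, expressed by activated stromal cells, had 0 of 15 members called in limma. At an unadjusted p under 0.05, 7 were lower and 1 higher (Des), against 9.37% and 5.47% of all genes. In 9 the groups were apart in the lower direction, against 8.14% of all genes. The list's median change was -0.59. It was -0.53 without 24 h replicate 3 (8 lower and 0 higher at that p, all genes 3.26% and 4.95%). With the GC trend removed it was -0.39 (4 lower and 1 higher, all genes 6.38% and 6.12%). The list's summed values were 4093 to 5177 FPKM at 12 h and 2371 to 3211 FPKM at 24 h, so that the groups did not overlap. Tagln, an actin-binding protein of smooth muscle, measured 377, 580 and 490 FPKM and then 189, 282 and 170 FPKM (-1.18 ± 0.38, adjusted p = 0.137), and Actg2, Myl9 and Acta2 had changes of -1.32, -1.15 and -0.75. Of actin genes outside that list, Acta1 was called lower, from 62.4, 78.0 and 79.8 FPKM to 42, 49.1 and 19.9 FPKM (-1.06 ± 0.22, adjusted p = 0.0233; 0.222 without 24 h replicate 3). Actg1, the cytoplasmic gamma actin gene, was called lower from 2793 ± 190.0 to 1744 ± 409 FPKM and is named with its values known. The aligner and the counting could split reads between such similar actin genes, so their separate values are uncertain. The stromal matrix list had 0 of 23 members called in limma and 0 at an unadjusted p under 0.05, with a median of -0.17. Fn1 (fibronectin) measured 911 ± 70.6 and 923 ± 287 FPKM and Mgp 456 ± 128 and 413 ± 141 FPKM.

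Bbc3, which encodes the pro-apoptotic protein PUMA and stands in both the BCL2 family and p53 target lists, measured 9.97, 14.3 and 8.32 FPKM and then 4.05, 7.70 and 2.73 FPKM (-1.08 ± 0.25, adjusted p = 0.0425; 0.321 without 24 h replicate 3). Its groups were apart by a small gap. It was the only member called of the 13 BCL2 family genes (median -0.20) and of the 15 p53 target genes (median 0.04). Bmf, another pro-apoptotic gene, had a change of -1.05 (adjusted p = 0.0918). Cdkn1a, a standard p53 target, had a change of 0.04. Among other called falls, the folate carrier Slc19a1 went from 49.0 ± 9.93 to 23.7 ± 7.49 FPKM, the lysine methyltransferase Mettl13 from 13.2 ± 1.58 to 5.75 ± 0.17 FPKM, and the phosphatidate phosphatase Lpin3 from 6.37 ± 1.72 to 2.29 ± 1.74 FPKM. Hmha1, a gene expressed in blood cells, measured 42.4, 50.1 and 37.9 FPKM and then 28.5, 23.5 and 8.24 FPKM, with 24 h replicate 3 far below (-1.23, and -0.72 without it, adjusted p = 0.355). Fbxl18 had a change of -1.22 and Gm10345 one of -1.24.

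Genes of lineage choice were not called at this step. Id3 measured 96.6, 147 and 122 FPKM at 12 h and 138, 171 and 49.0 FPKM at 24 h, where whether reads of the fusion were counted too is not given in the sources used here, and its change was -0.19 ± 0.38 (adjusted p = 0.871). Id1, Id2 and Tcf3 had changes of -0.14, 0.00 and -0.13. Ebf1, an early B-lineage factor, measured 16.9, 16.5 and 19.1 FPKM and then 22.7, 21.1 and 28.5 FPKM, groups that did not overlap (0.43 ± 0.33, adjusted p = 0.573). Pax5, the factor of B-lineage commitment, measured 0.84, 0.76 and 0 FPKM and then 3.98, 2.72 and 0.69 FPKM, with 24 h replicate 3 inside the range at 12 h (1.09 ± 0.44, adjusted p = 0.227). Foxo1 had a change of 0.43 (adjusted p = 0.387), with 24 h replicate 3 at 14.5 FPKM and the other 5 libraries between 5.88 and 7.27 FPKM. Of 14 B-lineage transcription factors 0 were called in limma, 1 was higher at an unadjusted p under 0.05 (Pax5), and the median was -0.11. Of 19 genes of the B-cell surface and the pre-B receptor 0 were called, with 1 higher (Cd24a, 0.51) and 1 lower (Plcg2, -0.48) at that p and a median of -0.01. Over all genes 5.47% were higher and 9.37% lower at that p. The surrogate light chain gene Igll1 measured 8.84, 2.30 and 6.64 FPKM and then 18.0, 4.10 and 1.04 FPKM, spread so widely at 24 h that the groups overlapped. Cd79a (0.21), Rag1 (0.20) and Il7r (0.04), which encode a B cell receptor chain, a recombinase and the IL-7 receptor, also had overlapping groups.

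The groups of the progenitor genes Flt3, Kit and Cd34 overlapped as well. In the list of 17 stem and multipotent progenitor genes, 1 had groups apart in the lower direction, against 8.14% of all genes. Flt3, the receptor for Flt-3L, measured 37.7, 31.1 and 25.2 FPKM and then 35.1, 20.8 and 8.42 FPKM (-0.71 ± 0.34, adjusted p = 0.322, and -0.19 without 24 h replicate 3). Kit, the SCF receptor, had a change of 0.02, Cd34 of 0.25 and Myc of -0.15, and the pan-leukocyte gene Ptprc measured 42.1, 27.3 and 27.2 FPKM and then 44.5, 23.6 and 14.5 FPKM (-0.33). Of 17 stem and multipotent progenitor genes 0 were called in limma, with 0 higher and 3 lower at an unadjusted p under 0.05 (Cd27, Flt3 and Sox4). Of 20 general blood-cell genes 0 were called, with 0 higher and 7 lower at that p and a median of -0.43. Over all genes 5.47% were higher and 9.37% lower at that p. Without 24 h replicate 3 the blood-cell median was -0.13 with 1 lower (all genes 3.26%). The sum of the blood-cell genes was lowest in that library, as given above.

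Of the 41 gene lists, 34 had no called member in the main fit. Cholesterol synthesis and uptake genes had 0 of 22 called in limma. At an unadjusted p under 0.05, 7 were higher and 0 lower, against 5.47% and 9.37% of all genes. Their list's median was 0.29 (0.42 without 24 h replicate 3, 0.32 with the GC trend removed). Idi1, which makes dimethylallyl diphosphate for sterols, measured 18.6, 6.63 and 16.6 FPKM and then 29.7, 23.8 and 34.0 FPKM, groups that were apart (1.11 ± 0.30, adjusted p = 0.0786), and Hmgcs1 had a change of 0.86 (adjusted p = 0.162). Ribosome biogenesis genes had 0 of 26 called, 2 higher and 6 lower at that p, and a median of -0.18. In the clock list Per2 had a change of 0.94 (adjusted p = 0.0863) and Nr1d1, a repressor in the same clock, one of -0.76 (adjusted p = 0.213), with a list median of 0.10. With the GC trend removed, 1 of the 12 clock genes tested was called higher, against 0.194% of all genes. The MHC class I list had a median of -0.57 that became 0.09 without 24 h replicate 3, and 0 of its 12 members were called.

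**Figure D5:**
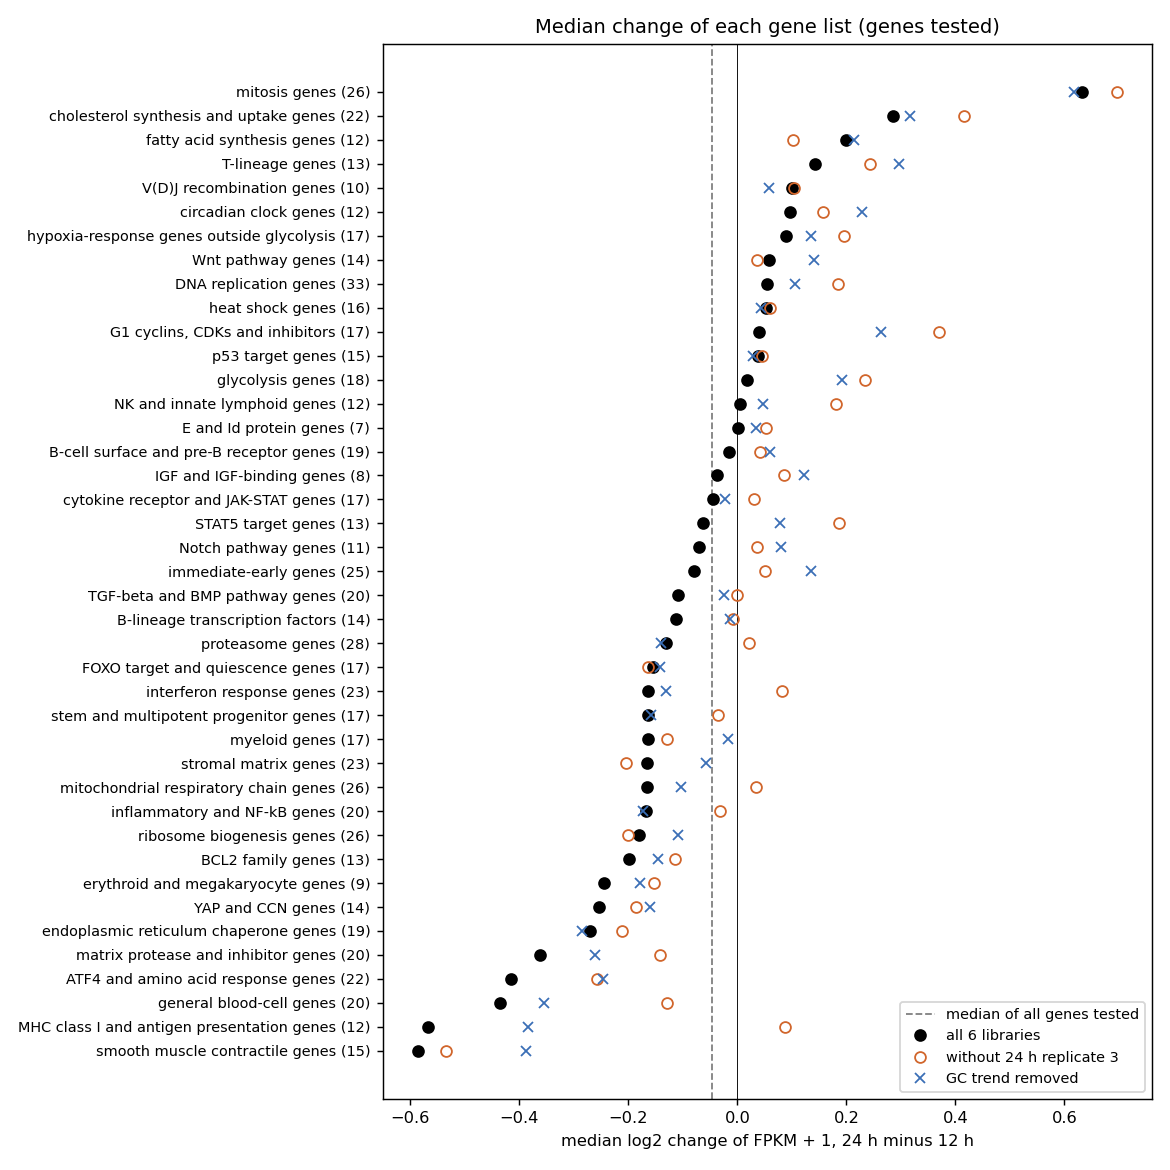
Median log2 change from 12 h to 24 h of each of the 41 gene lists (number of genes tested in parentheses) with all 6 libraries (black), without 24 h replicate 3 (open) and with the GC trend removed (crosses), beside the median of all genes (dashed). The mitosis list is highest, at 0.63, and the contractile list lowest, at -0.59; the MHC class I list moves from -0.57 to 0.09 when 24 h replicate 3 is left out.

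The step was set beside that from 48 h to 72 h, which uses none of the same libraries, by testing the difference of the changes in the same limma fit. It differed for 75 genes (0.539%), 27 with the more positive change from 12 h to 24 h and 48 with the more negative. Of the 27, 14 were also called between 12 h and 24 h, and of the 48, 6 were. The difference contains the 12 h to 24 h change itself, so overlap with those calls is partly built in. Hspa5 fell in the earlier step and had a change of -0.03 in the later one (difference -0.89 ± 0.18, adjusted p = 0.0294), with 356 ± 17.4 FPKM at 48 h and 349 ± 25.6 at 72 h. Ckap2 had changes of 1.22 and -0.39 (difference 1.61 ± 0.30, adjusted p = 0.0294), Nuf2 of 1.15 and -0.13 (adjusted p = 0.0351), and Calm2 of 0.73 and -0.30 (adjusted p = 0.0126). Bbc3 went the other way, with changes of -1.08 and 0.64 (adjusted p = 0.0297). Without 12 h replicate 2, 0 genes differed between the steps in limma, without 24 h replicate 3, 10 did, and without 12 h replicate 1, 48 did. Without 24 h replicates 1 and 2 the counts were 367 and 321. By list, the mitosis genes had a median of 0.63 in the earlier step and -0.02 in the later one, genes of the B-cell surface and the pre-B receptor of -0.01 and 1.07, B-lineage transcription factors of -0.11 and 0.86, and general blood-cell genes of -0.43 and 0.80, with differences called for 0, 1, 1 and 1 of their members. Igll1 measured 7.71 ± 9.03 FPKM at 24 h, then 31.3 ± 11.1 at 48 h and 104 by 72 h, and Cd79a 5.09, 13.2 ± 3.37 and 49.3 FPKM.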

How the data were processed

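The authors deposited 1 table of FPKM values, called corrected in its name, for 23234 genes in 44 libraries; what was corrected is not stated, and no counts were used here, so sequencing depth is unknown and no counting error is given. Per the submitters' processing notes, TopHat2 2.1.0, Cufflinks 2.1.1 and the mm9 build were used. Columns were matched to samples by the library code in the labels. From these values log2(FPKM + 1) was taken without further scaling, and a gene was tested where 3 or more of the 42 libraries with replicates (14 time points) reached 1 FPKM. limma was fitted to these 42 libraries with a mean for each time, so that all times share 1 estimate of spread (version 3.58.1, R 4.3.3, eBayes with a mean-variance trend). P-values were adjusted by Benjamini-Hochberg over the 13907 genes tested, with calls made under 0.05. A permutation of 3 against 3 libraries cannot go below p = 0.1. Errors are SD for FPKM (n = 3) and SE for log2 changes.

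Genes were named by a rule: called with groups apart, the 12 largest rises and 12 largest falls, up to 3 called members per list and direction, and 19 fixed genes. Small RNA genes were left out of the rises and falls by symbol (Snord, Snora, Scarna, Mir, Rnu, Rn and n-R). Gm12238, a small nucleolar RNA gene in RefSeq, lacks such a symbol and so is among the 12 rises. Further names were chosen with values known. Of the genes the rule gives, 1 is not reported here. The comparison, the 41 lists and the rule were chosen with earlier results of these data known. Alternatives were other pseudocounts, filters, scalings, covariates, a replicate block and leaving out each library. The removal of the GC trend (loess per library on transcript GC content, known for 98.6% of genes tested) was added after seeing the data. Promoter windows are those of RefSeq (GRCm38.p6), not of the build used for alignment; for genes with several, the first listed was used.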

Additional observations from a re-analysis of the deposited data

Results flagged for a closer look

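The number of genes whose change from 12 h to 24 h differed from that from 48 h to 72 h was 75, by a test of the difference itself in limma with Benjamini-Hochberg adjustment. It was 0 without 12 h replicate 2 and 10 without 24 h replicate 3, and it was 48 without 12 h replicate 1 and 367 and 321 without 24 h replicates 1 and 2.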

How the results depend on the processing

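None of the 63 called genes changed sign in an alternative that tested it, of 24 run; BB287469, Cyp39a1, Gm10345 and Syt13 were tested in 23, since they did not reach the 5 FPKM filter. The direction of genes that were not called was not followed, since a value that did not pass has no called direction. Counts of calls moved much more. Leaving out each library in turn gave 5 to 143 genes higher, 1 to 359 lower, 0 to 9 mitosis genes higher, 1 to 5 chaperone genes lower and 0 to 367 genes whose steps differ. A fit to the 6 libraries alone called 5 higher and 4 lower, with 0 mitosis and 0 chaperone genes, and 2 of the 63 genes were called in it. Scaling gave 18 lower (quantile), 53 higher (median ratio), 60 higher with 9 mitosis genes (equal sums without small RNA genes), and 3 lower, 1 mitosis gene, 0 chaperone genes and 5001 differing steps (blood-cell genes). With the stromal mean as a covariate 87 were higher, 85 lower and 4 chaperone genes lower, and with the blood-cell mean 45 were higher. A minimum change of 2-fold left 14 higher, 12 lower, 1 mitosis gene and 0 chaperone genes. The GC trend removed gave 9 lower and 1 chaperone gene, and without 24 h replicate 3 as well, 5 higher, 1 lower, 0 mitosis genes and 1 chaperone gene. The causes were not tested.

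Replicate numbers follow runs of library codes, and same-numbered libraries at 12 h and 24 h had deviations that correlated at 0.12, 0.119 and 0.0656. Each library correlated best with its own number. The codes and these correlations hint at a link between same-numbered libraries. The labels do not say what a number marks, so the numbers were not taken as pairs in the main fit. With a replicate block over 42 libraries 167 genes were higher, 231 lower, 12 mitosis genes and 5 chaperone genes were called, and 589 steps differed. With the block in the 6 libraries alone the counts were 3, 1, 0 and 0. With the block and the GC trend removed they were 105 higher, 72 lower and 11 mitosis genes.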
